A study of Homo sapiens with 60 samples.

Results

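The dose step from 20 to 100 µg/mL of 2 ginger extracts was examined in A549, a human cell line derived from a non-small cell lung carcinoma. It takes 12 of the 60 libraries of the series, placed in their groups by their labels, while the comparison itself was picked with earlier results of these data known: 6 at the medium dose of 100 µg/mL and 6 at the low dose of 20 µg/mL, with 3 libraries of each ginger at each dose. The step asks which genes respond to ginger below the top dose of 500 µg/mL. Both were hot-water extracts: Zingiberis Rhizoma (ZR) is dried ginger, and Zingiberis Rhizoma Recens (ZRR) is fresh ginger by its name, although the protocol describes drying of all plants ahead of extraction. All cells were treated for 24 h. Each ginger was also given at 500 µg/mL, and the same 3 doses of 2 other plants, jujube (Zizyphi Fructus, ZF) and Pinelliae Tuber (PT), served for comparison, with 3 libraries in each group. The remaining libraries had wortmannin at 10 µM, Scutellariae Radix at 9.2 to 230 µg/mL or Coptidis Rhizoma at 5.2 to 130 µg/mL. They entered only the fit over all 60 libraries, where they helped set the spread. The vehicle group of 3 libraries had 0.1% DMSO by its sample labels, while the series' design text gives 2%. Nothing in the labels ties the replicates to separate cultures; the p-values therefore cover the spread among these libraries, which could be purely technical. In bulk RNA, fewer cells of a kind and less RNA per cell cannot be told apart.

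Ginger extracts hold many small molecules, and cells can meet such a mixture with several sensing systems. The aryl hydrocarbon receptor (AHR) is a cytosolic receptor that binds planar small molecules, enters the nucleus with its partner ARNT and switches on enzymes of foreign-compound metabolism such as CYP1A1 and CYP1B1. The integrated stress response is a second system: phosphorylation of the initiation factor eIF2 slows general translation and favours the transcription factor ATF4, which raises genes of amino acid synthesis, amino acid transport and tRNA charging, and later CHOP (DDIT3). Immediate early genes such as the orphan nuclear receptor NR4A1 report on growth factor and kinase signalling.

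The 12 libraries held 17420373 to 24390442 estimated counts each, and 17129 genes were tested in a fit over all 60 libraries. A549 keratins and aldehyde-metabolising enzymes were abundant: 11 of 12 epithelial markers had a median above 1 CPM (counts scaled to the library total), and their summed level was 18100 to 19000 CPM at the medium and 17400 to 20400 CPM at the low dose. The line is often used as a model of alveolar type II cells, and its 10 markers summed to 18.2 to 22.2 CPM at the medium and 15.2 to 23 CPM at the low dose. The lipid transporter ABCA3 made up most of that sum (median 17.9 CPM) and the protease NAPSA had a median of 1.13 CPM, while the surfactant gene SFTPA1 was at 0 in all 12 libraries and SFTPC reached at most 0.0917 CPM. The 8 blood cell markers summed to 7.98 to 10 CPM at the medium and 7.25 to 10.1 CPM at the low dose, mostly from CD68 and CD14, with CD3E at 0. The 8 fibroblast and endothelial markers summed to 0.9 to 1.44 and 0.746 to 1.15 CPM. Libraries differed in how strongly expression followed transcript length, measured as the slope of log2 CPM on log2 length. It was lowest in dried ginger low replicate 3 (0.879) and fresh ginger low replicate 2 (0.893). The other 10 ran from 0.921, 0.949 and 0.957 up to 1.038, so no clear break sets the lowest 2 apart, and they were picked after the data were seen. Both of the 2 are low-dose libraries, and values without them are called values without the 2 low-slope libraries below.

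Few genes differed between the doses, and by small amounts. Against the low dose, 18 of 17129 genes were called (0.105% of genes tested; edgeR's quasi-likelihood test, Benjamini-Hochberg adjusted p under 0.05), 12 higher (0.0701%) and 6 lower (0.035%). The higher genes were the AHR targets CYP1B1 and TIPARP, the amino acid and stress genes ASNS, PSAT1, PYCR1, TRIB3 and GARS1, the secreted factors GREM1 and CXCL5, and TMEM156, TMEM52 and the readthrough gene ATP6V1G2-DDX39B. The lower genes were NR4A1, the long noncoding RNA H19, HR, FGB, JUP and BCAM. The gene lists examined were chosen with earlier results of these data known. Those of AHR targets and of ATF4 and CHOP targets held more than 1 called gene. Of these 18, the 17 with a mean log2 CPM of at least 1 changed by 1.09-fold to 1.51-fold, and the median log2 fold change of all genes was -0.00. Without the 2 libraries of lowest length slope the count was 192, of which 17 were among the 18. It was 180, including all 18, with each library's length slope as a covariate. When only the 12 libraries were fitted, without the other groups' share in the estimate of the spread, it was 2 (H19 and NR4A1). Leaving out 1 library in turn gave 12 to 38 calls, with 33 without fresh ginger low replicate 2 and 38 without dried ginger low replicate 3.

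**Figure D1:**
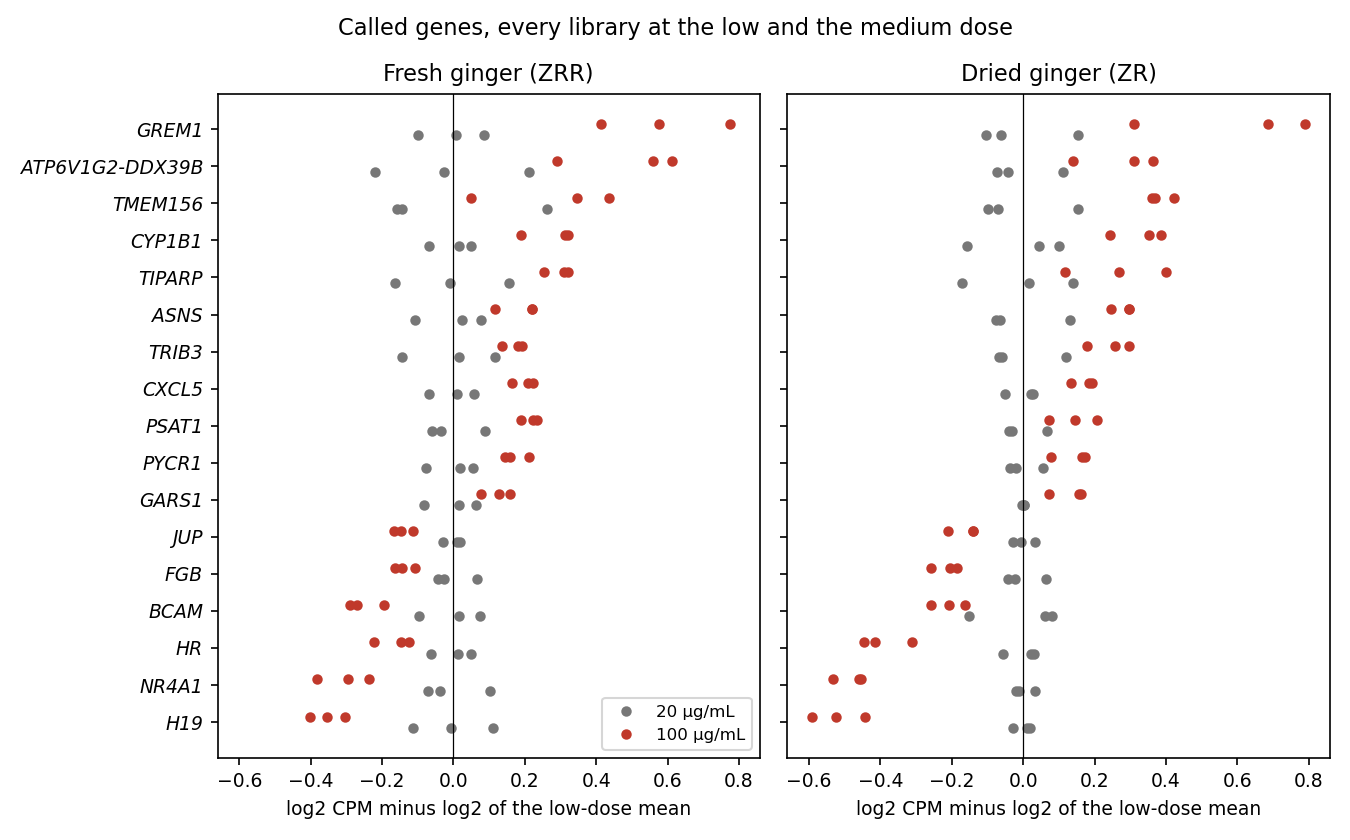
Each point is 1 library, plotted as its log2 CPM minus the log2 of the mean of the 3 low-dose libraries of the same ginger, for the 17 called genes with a mean log2 CPM of at least 1 (grey 20 µg/mL, red 100 µg/mL; fresh ginger left, dried ginger right). GREM1 lies highest and H19 and NR4A1 lowest in both panels, while the red and grey points of TMEM156 in fresh ginger and of TIPARP in dried ginger overlap.

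The fresh and dried ginger steps were then set side by side. All 18 genes had the same sign in both, and in 16 of the 18 every medium library lay on one side of every low library within each ginger. The test on these same libraries chose the 18 and favours both counts, which are a description and no support. Over all genes tested 63 lay higher in this way (0.368%) and 63 lower (0.368%). In 11 of the 18 all 6 medium libraries lay on one side of all 6 low libraries, which is stated for single genes below. That is likewise a description and no support. Over all genes it can hold for at most 0.368% in each direction, since it requires separation within each ginger. Tested singly, fresh ginger gave 3 calls (0.0175%) and dried ginger 5 (0.0292%). The difference between the 2 dose steps was tested directly and was called for 0 genes by edgeR (0%; 657 or 3.84% at an unadjusted p under 0.05) and for 0 by DESeq2. HR had a step of -0.16 ± 0.06 in fresh and -0.39 ± 0.06 in dried ginger, a difference of 0.23 with a 95% interval of 0.07 to 0.39 that is not adjusted for the number of genes (adjusted p = 0.994 in edgeR), so a difference between the gingers was not shown.

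**Figure D2:**
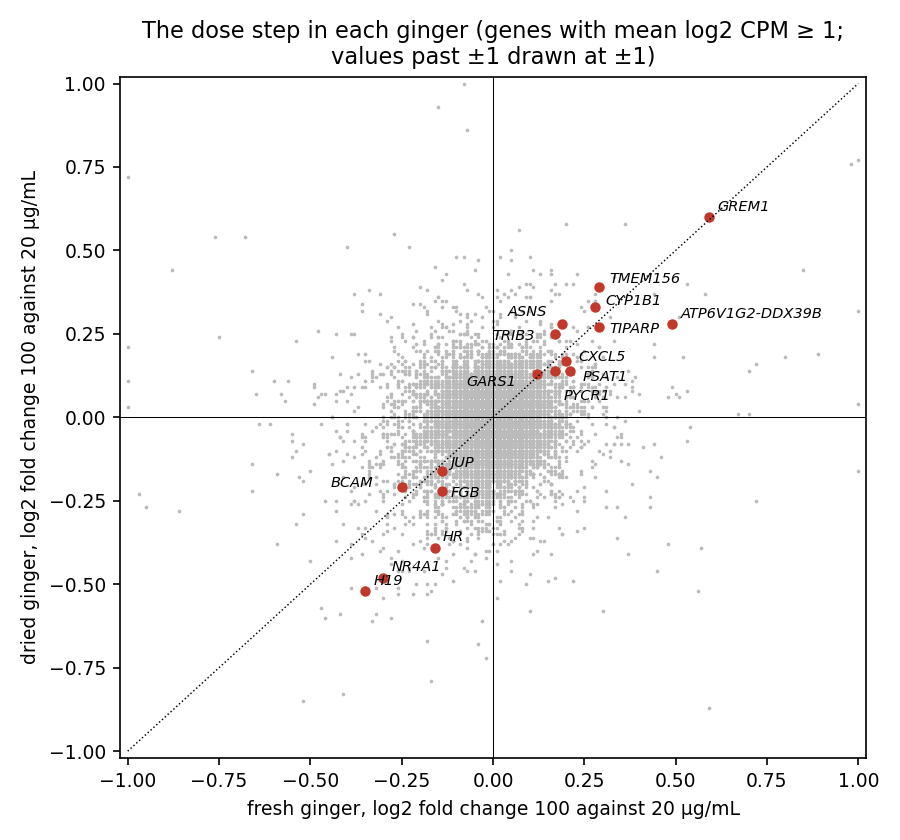
Each point is a gene with a mean log2 CPM of at least 1, placed by its log2 fold change from 20 to 100 µg/mL in fresh ginger (x axis) and dried ginger (y axis); red points are the 17 called genes and the dotted line marks equal steps. GREM1 sits at 0.59 and 0.60, H19 at -0.35 and -0.52, and each red point has the same sign on both axes.

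Among the AHR targets, CYP1B1 and TIPARP rose. Of 9 tested genes on the list 2 rose and 0 fell (0.0701% of all genes rose and 0.035% fell). The median log2 fold change was 0.19 (0.06 in fresh and 0.19 in dried ginger), beside -0.00 for all genes tested and 0.00 for the same 9 genes in PT and ZF. The median was 0.07 without fresh ginger medium replicate 1 and 0.09 without dried ginger medium replicate 2, and at the high dose against vehicle it was 0.10. CYP1B1, a P450 that oxidises steroids and polycyclic hydrocarbons (ENSG00000138061, GRCh38 chromosome 2, 38066973 to 38109902, minus strand), was at 58.8, 55.5 and 60.2 CPM in the low and 72.7, 72.3 and 66.3 CPM in the medium libraries of fresh ginger. In dried ginger it was at 65.5, 63 and 54.7 CPM at the low and 72.3, 79.8 and 78 CPM at the medium dose. All 6 medium libraries lay above all 6 low libraries. The log2 fold change was 0.30 ± 0.04 (standard error; edgeR adjusted p = 7.14e-05), and 0.25 without the 2 libraries of lowest length slope (adjusted p = 0.00317). The vehicle libraries were at 54.8 ± 1.54 CPM (SD, n = 3) and the high dose at 124 ± 1.07 CPM in fresh and 149 ± 10.5 CPM in dried ginger, so that the medium dose had covered 25.5% of the log2 distance from low to high.

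TIPARP, a member of the poly(ADP-ribose) polymerase family that marks and restrains AHR (ENSG00000163659, chromosome 3, 156673235 to 156706770, plus strand), rose by 0.28 ± 0.06 on the log2 scale (adjusted p = 0.0124, edgeR). Its low libraries were at 35.6, 28.5 and 31.7 CPM in fresh and 35.3, 38.5 and 31 CPM in dried ginger. The medium libraries were at 38.1, 39.9 and 39.6 CPM in fresh and 37.9, 46.1 and 42.1 CPM in dried ginger. Dried ginger medium replicate 1 lay below dried ginger low replicate 2, so the groups overlapped. Its call was lost without the 2 libraries of lowest length slope (0.20, adjusted p = 0.0628) and without dried ginger medium replicate 2 or low replicate 3 alone, with log2 fold changes of 0.20 to 0.33 over all alternative fits. The best-known AHR target, CYP1A1, did not pass: its log2 fold change was 0.46 ± 0.17 (adjusted p = 0.482) at 0.85 to 1.58 CPM in the low and 1.18 to 2.45 CPM in the medium libraries. Its step was 0.06 in fresh and 0.85 in dried ginger, a difference that was not called (adjusted p = 0.994). The AHR repressor gene AHRR had a log2 fold change of 0.19 ± 0.13 (adjusted p = 0.891), and NQO1, a quinone reductase, one of 0.07 ± 0.05 (adjusted p = 0.9).

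The stretch of 250 bases before the most upstream TIPARP start that RefSeq lists (GRCh38.p14, chr3:156674340-156674589, plus strand) is printed because TIPARP is the called AHR target whose start RefSeq's table gave here. Capitals mark the AHR core GCGTG or, on the other strand, CACGC, which begins 208 and 142 bases before that start.
TIPARP: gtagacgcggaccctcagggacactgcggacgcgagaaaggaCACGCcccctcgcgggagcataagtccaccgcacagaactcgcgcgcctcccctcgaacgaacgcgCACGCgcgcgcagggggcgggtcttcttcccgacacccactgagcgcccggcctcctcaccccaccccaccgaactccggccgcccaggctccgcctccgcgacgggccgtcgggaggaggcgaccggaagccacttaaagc
The same 5 letters stood in 32.2% of 35116 promoter windows of that length on either strand, so they are common by themselves. They occurred in 13 of the 26 windows of the 15 called genes that had a RefSeq entry. Windows of one gene can overlap, as those of TRIB3 do, and are counted separately. The other windows listed for TIPARP held no such core. A match is a description of the sequence and not evidence of binding.

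ASNS, PSAT1, PYCR1 and TRIB3 rose on the list of the integrated stress response. Of 33 tested genes on the list of ATF4 and CHOP targets, 4 rose and 0 fell (0.0701% of all genes rose and 0.035% fell). At an unadjusted p under 0.05, 13 were higher and 0 lower (3.06% of all genes were higher and 3.59% lower by that measure). The fold change was positive for 27 of the 33 and for 8335 of all 17129 genes. The list's median log2 fold change was 0.08 in the gingers, 0.08 in fresh and 0.09 in dried ginger, beside -0.00 for all genes and -0.00 for the same list in PT and ZF. Without the 2 libraries of lowest length slope 7 of the 33 rose and the median was 0.13, and when only the 12 libraries were fitted 0 rose with a median of 0.08. With a length-slope covariate 10 of the 33 rose, and 80 of all 17129 genes did.

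ASNS, asparagine synthetase (ENSG00000070669, chromosome 7, 97852118 to 97872542, minus strand), was at 125, 137 and 142 CPM at the low and 157, 146 and 157 CPM at the medium dose of fresh ginger. Dried ginger gave 116, 115 and 133 CPM at the low and 149, 144 and 149 CPM at the medium dose. The medium libraries all lay above the low libraries, and the log2 fold change was 0.23 ± 0.04 (edgeR adjusted p = 0.000768), and 0.28 without the 2 low-slope libraries (adjusted p = 7.53e-05). In PT it stood at 124 ± 1.47 CPM at the low and 125 ± 1.26 CPM at the medium dose, and in ZF at 127 ± 7.92 and 122 ± 1.22 CPM (SD, n = 3). The ginger step exceeded that of PT and ZF by 0.25 (95% interval 0.15 to 0.36), which did not pass over all genes (adjusted p = 0.175).

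PSAT1, the aminotransferase of serine synthesis (ENSG00000135069, chromosome 9, 78297143 to 78330093, plus strand), was at 341, 378 and 347 CPM at the low and 405, 415 and 418 CPM at the medium dose of fresh ginger. It was at 340, 342 and 366 CPM at the low and 367, 386 and 403 CPM at the medium dose of dried ginger. Within each ginger the doses did not overlap, although fresh ginger low replicate 2 lay above the lowest dried ginger medium library. The log2 fold change was 0.18 ± 0.03 (edgeR adjusted p = 5.2e-05), with 0.21 ± 0.04 in fresh ginger (adjusted p = 0.00634) and 0.14 ± 0.04 in dried ginger (adjusted p = 0.201). Without the 2 low-slope libraries it was 0.22 (adjusted p = 7.82e-07). The vehicle was at 353 ± 4.62 CPM, level with the low dose, and the high dose at 518 ± 14.8 CPM in fresh and 513 ± 16.9 CPM in dried ginger.

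PYCR1, which makes proline, rose by 0.16 ± 0.03 on the log2 scale (adjusted p = 0.00489, edgeR), from 77.5 to 88.8 CPM in the low to 90.3 to 96.4 CPM in the medium libraries. TRIB3, a pseudokinase that ATF4 and CHOP induce, rose by 0.21 ± 0.05 (adjusted p = 0.0384), from 66.5 to 81.5 CPM to 79 to 85.9 CPM, and its call held in 6 of 19 alternative fits. GARS1, the glycyl-tRNA synthetase, rose by 0.13 ± 0.03 (adjusted p = 0.0225), from 215 to 238 CPM to 231 to 254 CPM. PYCR1 lost its call without fresh ginger low replicate 1, GARS1 without any library other than fresh ginger medium replicate 2, fresh ginger low replicates 2 and 3, dried ginger medium replicate 1 and dried ginger low replicate 3, and TRIB3 without any library other than fresh ginger low replicate 2 and dried ginger low replicate 3. PYCR1 and GARS1 were also lost with no filter on low counts, and TRIB3 with the size factors of DESeq2 and with a replicate block. The direction of all 3 was positive in each of the 19 alternative fits, with log2 fold changes of 0.14 to 0.18 for PYCR1, 0.11 to 0.15 for GARS1 and 0.18 to 0.27 for TRIB3, the last without the 2 low-slope libraries.

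The other 29 members of the list were not called, and 23 of them had positive values. STC2, a secreted glycoprotein of stressed cells, had a log2 fold change of 0.20 ± 0.05 (adjusted p = 0.111), MTHFD2 of mitochondrial folate metabolism 0.13 ± 0.03 (adjusted p = 0.125), and PCK2, mitochondrial phosphoenolpyruvate carboxykinase, 0.18 ± 0.05 (adjusted p = 0.179). The transcription factor CEBPG had 0.09 ± 0.02 (adjusted p = 0.169) and the neutral amino acid carrier SLC1A4, of the transporter list, 0.16 ± 0.04 (adjusted p = 0.169). PSPH, the last enzyme of serine synthesis, had -0.02 ± 0.04 (adjusted p = 0.977), CTH of cysteine synthesis -0.07 ± 0.10 (adjusted p = 0.975) and the transcription factor ATF5 -0.05 ± 0.04 (adjusted p = 0.943). The proapoptotic factor DDIT3 (CHOP) had 0.08 ± 0.09 (95% interval -0.10 to 0.27, adjusted p = 0.959) and CHAC1, which degrades glutathione, 0.05 ± 0.06 (adjusted p = 0.97). At the high dose against vehicle both were called, DDIT3 at 0.66 ± 0.12 (adjusted p = 8.55e-05) and CHAC1 at 1.01 ± 0.08 (adjusted p = 7.74e-14). The share of the log2 distance from low to high reached at the medium dose was 6.9% for CHAC1, 29.2% for DDIT3, 36% for ASNS, 35% for PYCR1, 33.9% for GARS1, 32.5% for PSAT1, 26% for TRIB3 and 19.2% for STC2. Those shares have no test and take no account of the vehicle. DDIT3 was at 8.42 ± 1.13 CPM in vehicle, and at the low dose at 11.1 ± 1.72 CPM in fresh and 10.8 ± 1.76 CPM in dried ginger (SD, n = 3). CHAC1 was at 5.88 ± 0.211 CPM in vehicle, and at the low dose at 7.86 ± 0.989 CPM in fresh and 7.03 ± 0.522 CPM in dried ginger. The low dose was not tested against vehicle.

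Among 20 cytosolic tRNA synthetases 1 rose (GARS1) and 0 fell (0.0701% of all genes rose and 0.035% fell). Of the 20, 8 were higher at an unadjusted p under 0.05 and 18 had a positive fold change, with a median of 0.05. With a length-slope covariate 5 of the 20 rose. Over all genes tested, 3.06% were higher at an unadjusted p under 0.05 and 8335 of 17129 had a positive fold change. YARS1 and WARS1, which charge tyrosine and tryptophan, each had a log2 fold change of 0.10 ± 0.03 (adjusted p = 0.126 and 0.175). Of 15 amino acid transporters 0 were called and 2 were higher at an unadjusted p under 0.05, with a median of 0.03 that became -0.04 without the 2 low-slope libraries, -0.01 without dried ginger low replicate 3 alone and 0.01 without dried ginger medium replicate 2. With a length-slope covariate 1 of the 15 rose. Of 20 genes of endoplasmic reticulum chaperones and the unfolded protein response 0 were called and 5 were higher at an unadjusted p under 0.05, with a median of 0.04. Without the 2 low-slope libraries 3 of the 20 rose with a median of 0.10, and with a length-slope covariate 3 rose; without dried ginger low replicate 3 alone 1 rose. The chaperone HSPA5 had 0.11 ± 0.03 (adjusted p = 0.251).

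The 250 bases before the most upstream ASNS start in RefSeq (GRCh38.p14, chr7:97872409-97872658, minus strand, printed along the gene) are shown because ASNS is a called gene whose window held an ATF4 element, searched as TGATGNAA on either strand. Capitals mark that element, which begins 68 bases before the start, and an AHR core on the other strand (CACGC) 53 bases before it.
ASNS: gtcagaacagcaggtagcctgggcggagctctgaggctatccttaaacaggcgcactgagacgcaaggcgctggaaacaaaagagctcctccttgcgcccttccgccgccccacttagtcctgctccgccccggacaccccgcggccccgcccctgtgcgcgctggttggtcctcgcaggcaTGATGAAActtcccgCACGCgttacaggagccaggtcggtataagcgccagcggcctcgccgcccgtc
The element stood in 3.14% of 35116 promoter windows, and in 2 of the 26 windows of the 15 called genes with a RefSeq entry. Those windows belong to ASNS and GARS1, whose other listed windows held none. It was not in the windows listed for PSAT1 and TRIB3.

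**Figure D3:**
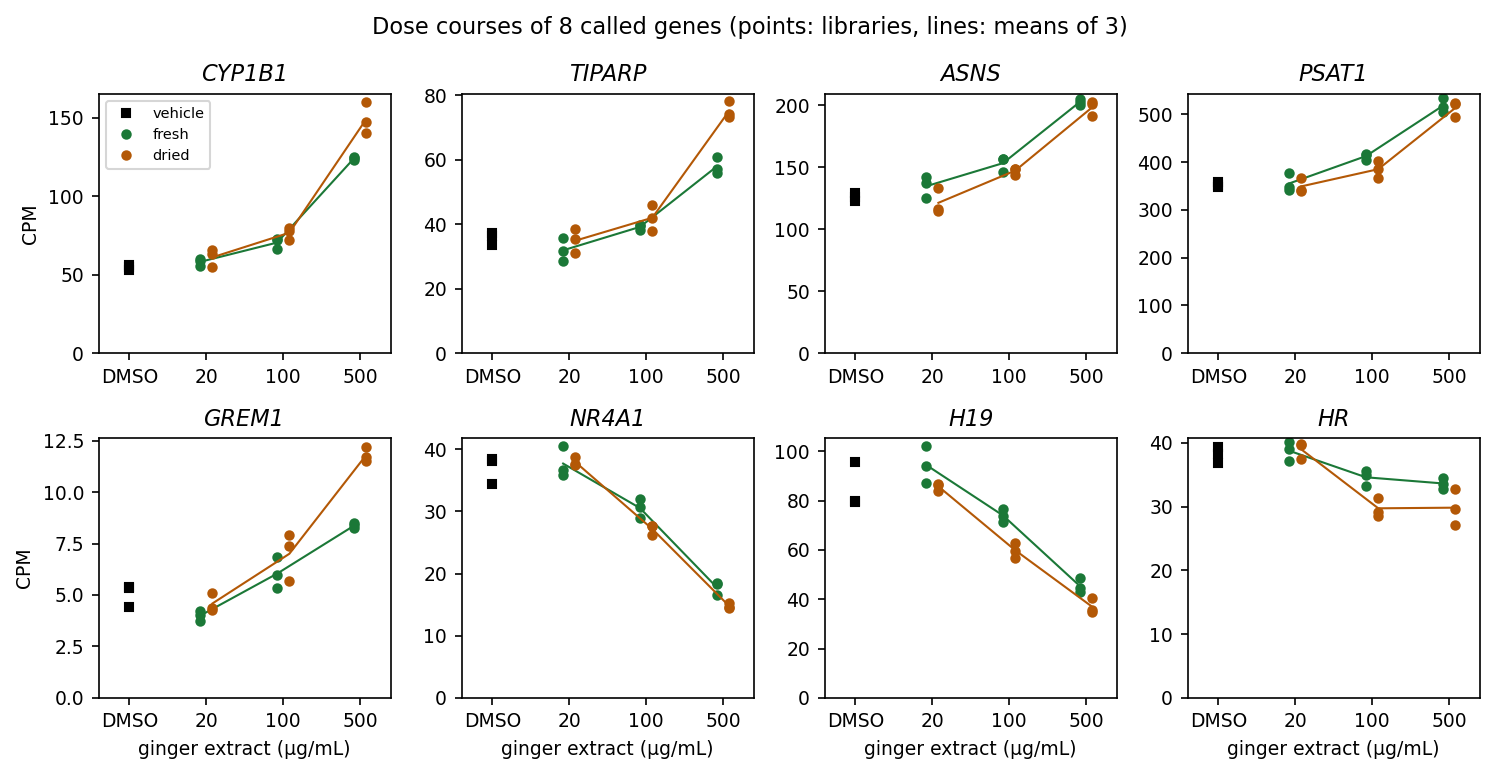
CPM of 8 called genes in vehicle (black squares) and at 20, 100 and 500 µg/mL of fresh (green) and dried ginger (orange); points are libraries, lines join means of 3, and each y axis starts at 0. CYP1B1, TIPARP, ASNS, PSAT1 and GREM1 climb further at 500 µg/mL, NR4A1 and H19 fall further, and HR in dried ginger is as low at 100 as at 500 µg/mL (29.7 and 29.8 CPM).

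GREM1, gremlin, which binds and blocks bone morphogenetic proteins (ENSG00000166923, chromosome 15, 32717974 to 32745107, plus strand), had the largest rise among called genes with a mean log2 CPM of at least 1. It was at 3.73, 4.24 and 4.01 CPM at the low and 5.32, 6.83 and 5.95 CPM at the medium dose of fresh ginger, and at 5.1, 4.27 and 4.39 CPM and 7.38, 7.93 and 5.69 CPM in dried ginger. All medium libraries lay above all low libraries, and the log2 fold change was 0.60 ± 0.10 (edgeR adjusted p = 0.000329), a 1.51-fold rise. Without the 2 low-slope libraries it was 0.60 (adjusted p = 0.00193). The vehicle was at 5.04 ± 0.528 CPM, between the low and the medium dose, so the step was larger than the distance from vehicle to the medium dose. Of 11 tested genes on the BMP list GREM1 rose and 0 fell (0.0701% of all genes rose and 0.035% fell). The BMP-induced inhibitors ID1, ID2 and ID3 had log2 fold changes of 0.00, 0.03 and 0.02.

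CXCL5, a neutrophil-attracting chemokine (ENSG00000163735, chromosome 4, 73995642 to 73998779, minus strand), rose by 0.19 ± 0.04 (edgeR adjusted p = 0.00839), from 77.6 to 89.2 CPM in the low to 91.2 to 100 CPM in the medium libraries, without overlap. The call was lost without dried ginger low replicate 2 or fresh ginger low replicate 3, with log2 fold changes of 0.18 to 0.21 over the alternative fits. PT went from 86.3 ± 0.668 to 106 ± 3.95 CPM, while ZF stood at 80.7 ± 2.59 and 78.9 ± 2.65 CPM (SD, n = 3). In the list of inflammatory NF-kB targets 1 of 20 rose (CXCL5) and 0 fell (0.0701% of all genes rose and 0.035% fell). At an unadjusted p under 0.05, 3 were higher and 1 lower, beside 3.06% and 3.59% of all genes. The median was 0.06 in the gingers, with -0.02 in fresh and 0.13 in dried ginger, and 0.07 in PT and ZF. CXCL8 had 0.34 ± 0.17 (adjusted p = 0.75), CCL2 0.16 ± 0.10 (adjusted p = 0.857) and PTGS2, the inducible cyclooxygenase, -0.28 ± 0.09 (adjusted p = 0.334). The step of CCL2 was -0.08 ± 0.15 in fresh and 0.40 ± 0.14 in dried ginger, a difference that was not called (edgeR adjusted p = 0.994).

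NR4A1 fell with the smallest p of all genes. This receptor (ENSG00000123358, chromosome 12, 52022832 to 52059507, plus strand) was at 36.7, 40.5 and 35.9 CPM at the low and 28.9, 30.7 and 32 CPM at the medium dose of fresh ginger. In dried ginger it was at 37.4, 37.6 and 38.8 CPM and then 27.7, 27.6 and 26.2 CPM. All 6 medium libraries lay below all 6 low libraries, and the log2 fold change was -0.39 ± 0.04 (edgeR adjusted p = 5.8e-08), and -0.36 without the 2 low-slope libraries (adjusted p = 3.69e-06). Vehicle libraries were at 37 ± 2.28 CPM, and the high dose at 17.8 ± 0.981 CPM in fresh and 14.8 ± 0.387 CPM in dried ginger. The call held in each of the 19 alternative fits. NR4A1 was the only called gene among 27 immediate early and ERK feedback genes: its relatives NR4A2 and NR4A3 had -0.30 ± 0.11 (adjusted p = 0.466) and -0.18 ± 0.10 (adjusted p = 0.833), and EGR1 -0.34 ± 0.15 (adjusted p = 0.666).

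H19, an imprinted noncoding RNA that is abundant in fetal tissue and many tumours and hosts a microRNA (ENSG00000130600, chromosome 11, 1995176 to 2001470, minus strand), fell by 0.43 ± 0.05 on the log2 scale (edgeR adjusted p = 8.75e-07). Fresh ginger took it from 102, 87.3 and 94.1 CPM at the low to 76.5, 73.9 and 71.5 CPM at the medium dose. Dried ginger took it from 86.3, 86.9 and 84 CPM to 63, 59.6 and 56.9 CPM. The groups did not overlap, and this call too held in each of the 19 alternative fits, with -0.47 without the 2 low-slope libraries (adjusted p = 9.32e-07). Vehicle libraries were at 85 ± 9.28 CPM, beside low-dose means of 94.5 ± 7.32 CPM in fresh and 85.7 ± 1.53 CPM in dried ginger (SD, n = 3). In PT and ZF together the step was -0.18 ± 0.05 and was not called (adjusted p = 1), and the ginger step differed from it by -0.26 (95% interval -0.40 to -0.11, adjusted p = 0.838).

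HR, a nuclear corepressor and histone demethylase (ENSG00000168453, chromosome 8), fell by 0.28 ± 0.04 on the log2 scale (edgeR adjusted p = 5.2e-05), from 39.1, 37.1 and 40.1 to 33.2, 35.6 and 35 CPM in fresh and from 39.6, 39.8 and 37.5 to 31.4, 29.2 and 28.6 CPM in dried ginger. Without the 2 low-slope libraries the log2 fold change was -0.31 (adjusted p = 5.73e-05). The doses did not overlap, and the high dose lay close to the medium dose, at 33.6 ± 0.856 CPM in fresh and 29.8 ± 2.85 CPM in dried ginger. No difference between high and medium was called (-0.02 ± 0.04, 95% interval -0.10 to 0.06, adjusted p = 0.817). In PT and ZF together HR had a step of -0.17 ± 0.04 (adjusted p = 0.717), and the ginger step differed from it by -0.11 (95% interval -0.22 to 0.00). PT took HR from 39.9 ± 1.51 to 34.5 ± 1.18 CPM and ZF from 42.3 ± 2.15 to 38.7 ± 1.42 CPM (SD, n = 3).

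The remaining falls were in an acute-phase liver protein and in adhesion genes. FGB, the fibrinogen beta chain that A549 cells express, fell by 0.18 ± 0.03 on the log2 scale (edgeR adjusted p = 0.00566), from 158 to 175 CPM in the low to 136 to 155 CPM in the medium libraries. In the list of liver-lineage genes 0 of 15 rose and 1 fell (0.0701% of all genes rose and 0.035% fell). At an unadjusted p under 0.05, 6 were lower (3.59% of all genes were). The list's median was -0.10 beside -0.03 in PT and ZF. Without the 2 low-slope libraries 3 fell, and with a length-slope covariate 5. The transcription factor HNF4A had -0.15 ± 0.04 (adjusted p = 0.169) and the fibrinogen alpha chain FGA -0.10 ± 0.03 (adjusted p = 0.38). JUP, plakoglobin of desmosomes and adherens junctions, fell by 0.15 ± 0.03 (adjusted p = 0.00566), from 244 to 255 CPM to 215 to 230 CPM. Its vehicle libraries were at 230, 230 and 242 CPM, below every low-dose library, so the step was larger than the distance from vehicle to the medium dose. BCAM, a laminin receptor, fell by 0.23 ± 0.05 (adjusted p = 0.0402), from 73.3 to 89.6 CPM to 64.1 to 75.7 CPM, and its call was lost without any library other than low replicate 3 of either ginger, at -0.27 to -0.21 over the alternative fits. FGB lost its call without replicate 1 or 2 of fresh ginger medium, fresh ginger low replicate 2 or dried ginger medium replicate 1 (-0.19 to -0.14), and JUP without dried ginger medium or low replicate 2 or fresh ginger medium or low replicate 3 (-0.16 to -0.13). JUP was also lost with no filter on low counts, and BCAM with a replicate block.

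TMEM156, a membrane protein, rose by 0.34 ± 0.07 (edgeR adjusted p = 0.00839), from 9.88 to 13.2 CPM in the low to 11.4 to 14.9 CPM in the medium libraries, with overlap in fresh ginger. Its call was lost without any of 5 libraries (fresh ginger medium replicate 1 and low replicates 1 and 3, and dried ginger low replicates 1 and 2), at 0.30 to 0.46. ATP6V1G2-DDX39B, a readthrough gene that joins 2 neighbours, rose by 0.38 ± 0.07 (adjusted p = 0.0042). It shares reads with DDX39B, whose log2 fold change was -0.15 ± 0.05 (adjusted p = 0.237), so its value is uncertain; DDX39B was looked up after the call was seen. It was also among the 2 called genes that were not called at the high dose against vehicle (-0.06 ± 0.09, adjusted p = 0.822). The other was TMEM52, a membrane protein gene outside the rule for named genes that is given here because it was called: it had 4, 4 and 4 counts at the low and 17, 7 and 8 counts at the medium dose of fresh ginger, and 1, 2 and 3 and then 5, 13 and 8 counts in dried ginger. Its log2 fold change of 1.72 ± 0.36 (adjusted p = 0.0161) therefore rests on few reads, and the call was lost without any of 5 libraries (fresh ginger medium and low replicate 1, dried ginger low replicates 1 and 2 and medium replicate 2). The call was also lost with DESeq2.

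Whether the medium-dose genes also moved at the top dose was asked in the 500 µg/mL libraries against vehicle, none of which is on either side of the dose step. All of them were in the fit over 60 libraries, though, and helped set the spread behind the 18 calls. An overlap of the 2 comparisons is therefore not an independent check. At the high dose against vehicle 1072 of 17129 genes were called (6.26%, with 3.38% higher and 2.88% lower). Of the 18 genes 16 were called in the same direction, which is 88.9% of the 18 and 1.49% of the 1072, and the count was again 16 without each vehicle library and each high-dose library in turn, although the 1072 became 632 without vehicle replicate 1 and 665 without vehicle replicate 2. CYP1B1 had 1.31 ± 0.06 there (adjusted p = 4.99e-23), ASNS 0.66 ± 0.05 (adjusted p = 8.5e-15), NR4A1 -1.19 ± 0.05 (adjusted p = 4.99e-23) and GREM1 0.98 ± 0.11 (adjusted p = 4.27e-09). The sample codes of vehicle and ginger libraries begin differently, A1 and 2, and what that marks cannot be told apart from treatment in this comparison, while the dose step lies within one code. From medium to high dose, a comparison that shares the medium libraries, 1824 genes were called (10.6%), with CYP1B1 at 0.88 ± 0.04, ASNS at 0.41 ± 0.04, H19 at -0.70 ± 0.05 and GREM1 at 0.62 ± 0.09.

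Other lists with called genes at the high dose had none at the dose step in the fit over 60 libraries, though some gained calls in other fits. Of 20 heat shock genes 0 were called, and 0 had an unadjusted p under 0.05 in either direction. At the high dose against vehicle 11 were called lower (2.88% of all genes were). HSPA1A had -0.07 ± 0.05 at the dose step (edgeR adjusted p = 0.879). Of 25 TGF-beta and matrix genes 0 were called and 8 were lower at an unadjusted p under 0.05 (3.59% of all genes were), with a median of -0.06. COL1A1, a chain of type I collagen, had -0.11 ± 0.05 (adjusted p = 0.614) at the dose step and -0.64 ± 0.06 (adjusted p = 3.1e-12) at the high dose. Of those 25, 1 fell without the 2 low-slope libraries (median -0.10), 1 with no filter and 2 with a length-slope covariate, and the median was -0.03 without fresh ginger medium replicate 3. Among 23 NRF2 targets 0 were called and 5 were higher at an unadjusted p under 0.05 (3.06% of all genes were). GCLM of glutathione synthesis was at 0.13 ± 0.03 (adjusted p = 0.165) and HMOX1, heme oxygenase, at 0.15 ± 0.05 (adjusted p = 0.334). Without the 2 low-slope libraries 3 of the 23 rose, HMOX1 among them (0.25, adjusted p = 0.00309), and the median was 0.10 against 0.03; 4 rose with a length-slope covariate, 2 with DESeq2, 2 without dried ginger low replicate 3 and 1 without fresh ginger low replicate 2. Of 25 mitosis genes 0 were called at the dose step, with a median of 0.02. At the high dose 12 were called lower (2.88% of all genes were). In this list 1 rose at the dose step without the 2 low-slope libraries and 1 with a length-slope covariate. Whether the dose step and the high-dose change differ for these lists was not tested.

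**Figure D4:**
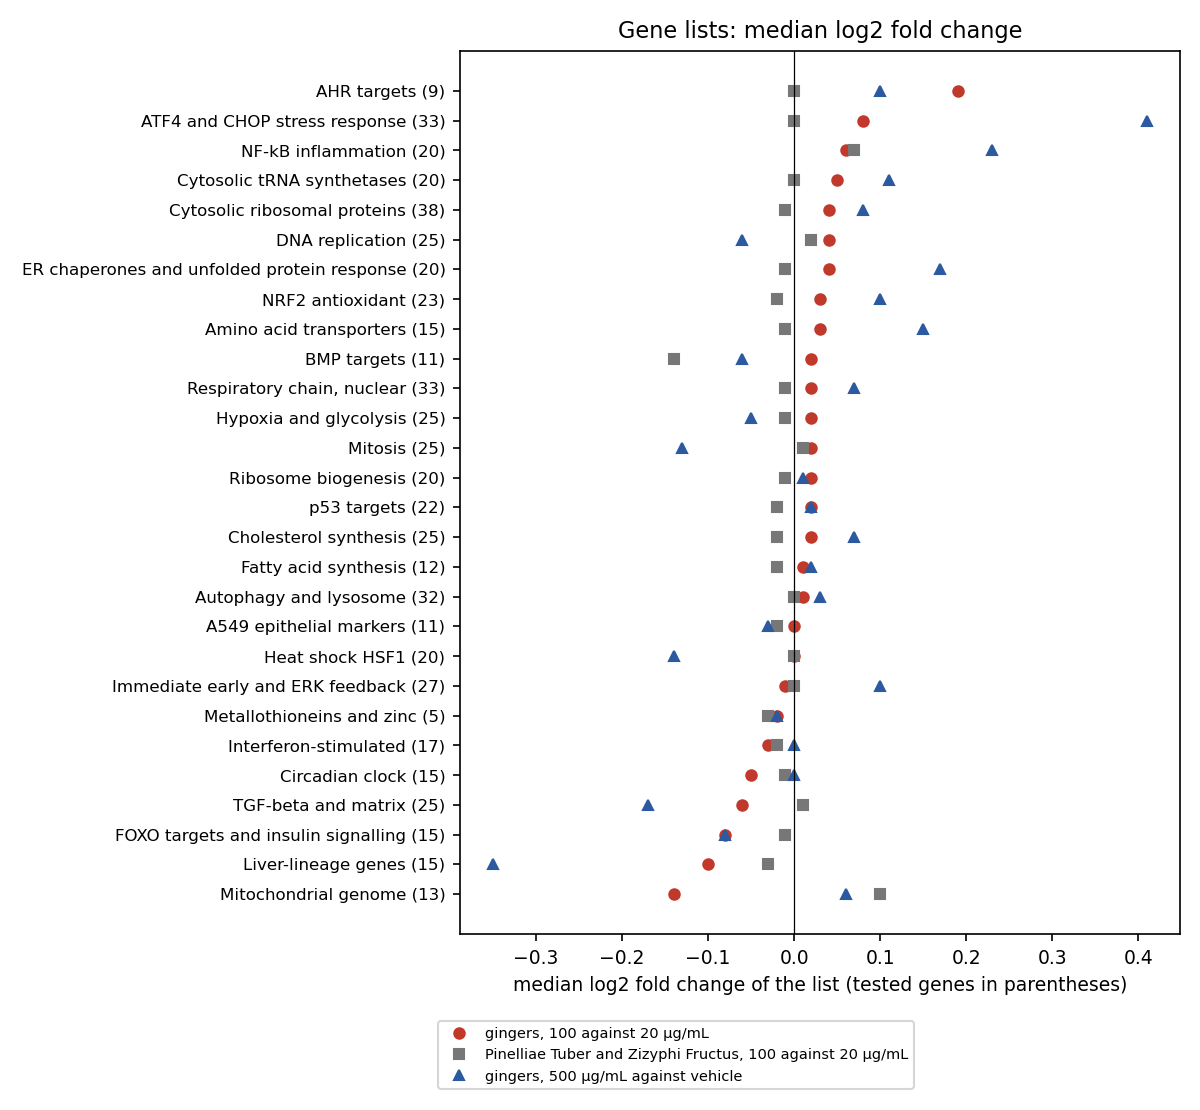
Median log2 fold change of each gene list with at least 5 tested genes (number tested in parentheses): gingers at 100 against 20 µg/mL (red circles), PT and ZF at the same doses (grey squares) and gingers at 500 µg/mL against vehicle (blue triangles). The ginger dose step and the high dose lie at 0.19 and 0.10 for AHR targets and at 0.08 and 0.41 for the ATF4 and CHOP list.

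The same step was taken in PT and ZF, which were given at identical doses. There edgeR called 0 genes (0%; 435 or 2.54% at an unadjusted p under 0.05) and 4 were called by DESeq2. Testing the difference between the steps called 0 genes by edgeR (0%, with 667 or 3.89% at an unadjusted p under 0.05), so edgeR's test shows none of the 18 genes to be particular to ginger. DESeq2 called 2 genes, and whether they are among the 18 is not given here. Other fits that called more are given below. CYP1B1 had 0.09 ± 0.04 in PT and ZF, a difference of 0.22 (95% interval 0.09 to 0.34, adjusted p = 0.849), and GREM1 -0.01 ± 0.09, a difference of 0.60 (95% interval 0.34 to 0.86, adjusted p = 0.175). For PSAT1 the difference was 0.17 (95% interval 0.09 to 0.24, adjusted p = 0.175) and for NR4A1 -0.27 (95% interval -0.39 to -0.16, adjusted p = 0.175).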

How the data were processed

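Per the labels' protocols, directional mRNA libraries of A549 cells were sequenced from both ends, 100 bases each. The deposited table holds estimated counts (expected counts) per Ensembl gene, not normalised, per its values. RSEM 1.3.3, STAR 2.7.3a, Trim Galore 0.6.5, FastQC 0.11.9 and GRCh38 are listed in the submitters' processing notes; annotation release and strand setting: not given in the sources used here. Overlapping and antisense genes may share reads. Of 269 columns over 60675 genes, 60 carry this series' labels and 209 were not used.

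Counts were rounded and fitted with edgeR 4.0.16 in R 4.3.3 (TMM, filterByExpr by group, robust quasi-likelihood fit) over 60 libraries in 20 groups, with 40 residual degrees of freedom; the common biological coefficient of variation was 7.04%. Contrasts averaged the steps of both gingers, and a gene was called at an adjusted p (Benjamini-Hochberg, all 17129 genes) under 0.05. CPM uses TMM-adjusted library sizes, and a standard error is the fold change divided by the square root of F. Marker CPM uses raw totals. The members of the comparison and the 31 gene lists were chosen with earlier results of these data known. The text names, in each direction, the 12 largest changes among called genes whose mean log2 CPM was 1 or more and whose libraries were separated, filled by smallest p, plus a panel of 18 genes and called list members; of the names filled in without a call, STC2 is reported. Other genes named are list members with a small p or relatives of a called gene, chosen after their values were seen. Each gene's length is its longest transcript in GENCODE, and 99.3% of genes tested had one. Simulated data were used to test the fit. Replicates of one group correlated at 0.982 to 0.991, and 0 were identical. Alternatives were DESeq2 1.42.0 size factors, DESeq2 itself, no filter, a replicate block, the length slope as a covariate, only the libraries compared, each library left out and, added after the data were seen, leaving out the 2 libraries of lowest length slope. Promoter sequences are from RefSeq GRCh38.p14, which matched 15 of 18 called genes.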

Additional observations from a re-analysis of the deposited data

How the results depend on the processing

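The count of 18 genes called between medium and low dose was 17 with the size factors of DESeq2, 162 with no filter, 180 with a length-slope covariate, 2 with only the 12 libraries, 192 without the 2 libraries of lowest length slope, 48 with DESeq2 and 12 to 38 with each library left out in turn, lowest without dried ginger medium or low replicate 2 and highest without dried ginger low replicate 3. In the same order without the size factors, the 3 calls of fresh ginger became 137, 247, 0, 14, 11 and 0 to 13 (0 without low replicate 1, low replicate 3 or medium replicate 3, and 13 without low replicate 2), and the 5 of dried ginger 147, 28, 0, 23, 21 and 3 to 18 (18 without low replicate 3). The 0 calls for fresh against dried ginger became 78 with no filter and 0 to 0 with a library left out. The 0 calls for gingers against PT and ZF became 87 with no filter, 19 with the length slope, 2 with DESeq2 and 0 to 1 with a library left out, and the 0 of PT and ZF became 62, 4, 4 and 0 to 1. High against vehicle (1072) gave 2179 with the length slope, 1646 with only its libraries and 632 to 1017 with a library left out; high against medium (1824) gave 3917 with only its libraries and 1053 to 2036, lowest without dried ginger high replicate 1. The cause was not tested. With a library left out CHAC1 lay between -0.0022, without fresh ginger low replicate 1, and 0.09.

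Replicate numbers did not pair the libraries: 3 of 18 same-number pairs of deviations correlated above 0.1 (median -0.032, against 0.015 for other numbers). With a replicate block 16 genes were called for medium against low, 222 for high against vehicle and 1415 for high against medium. The block was set within each sample code, and code A1 holds only the vehicle libraries. High against vehicle in that fit therefore rests on 1 vehicle library. Its count cannot show what blocking on replicate does, since vehicle libraries are lost with it. For medium against low, H19 and NR4A1 were called in each of 19 alternatives. GREM1, ATP6V1G2-DDX39B, CYP1B1, ASNS, PSAT1 and HR were lost only with the 12 libraries alone.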

Other observations

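Genes of the mitochondrial genome had no call in the test over 60 libraries, but 5 of 13 were called lower with no filter and 1 with DESeq2. All 13 had a log2 fold change at or below -0.00 from low to medium dose, with a median of -0.14 in the gingers and 0.10 in PT and ZF. MT-ATP8 had -0.60 ± 0.17 (edgeR adjusted p = 0.206) and MT-ND6 -0.41 ± 0.11 (adjusted p = 0.173). The mean log2 level of the 13 genes, relative to all 12 libraries, was 0.40 in fresh ginger low replicate 1 and -0.18 to 0.14 in the other 11. Without that library the median was -0.09, and without the 2 libraries of lowest length slope it was -0.20.

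Genes linked to insulin signalling through FOXO factors had a median log2 fold change of -0.08 at the dose step. It was -0.03 without dried ginger low replicate 2, -0.04 without low replicate 1 of either ginger, -0.12 without dried ginger low replicate 3 and -0.15 without the 2 libraries of lowest length slope. Of 15 tested genes 0 were called and 5 were lower at an unadjusted p under 0.05 (3.59% of all genes were). Of the 15, 1 fell without the 2 libraries, 1 without dried ginger medium replicate 3, 1 with no filter, 1 with DESeq2 and 2 with the length slope as a covariate. PDK4, which restrains pyruvate oxidation, had -0.25 ± 0.07 (edgeR adjusted p = 0.169), GADD45B -0.19 ± 0.05 (adjusted p = 0.169) and the insulin receptor substrate IRS2 -0.12 ± 0.04 (adjusted p = 0.385).

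Across 17007 genes the Spearman correlation of the dose-step log2 fold change with transcript length was 0.117 in fresh and -0.254 in dried ginger, a description over genes, which are not independent replicates. The 2 libraries of lowest length slope are both low-dose libraries, 1 of each ginger.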
